A study of Mus musculus with 10 samples.

Results

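The genes described here are 34 named genes of protein folding and stress in the endoplasmic reticulum (ER), the compartment in which secreted and membrane proteins are folded. They are given as a list of gene names, and all 34 were found among the 20579 genes of the count table. Of them, 32 had counts high enough to be tested, out of 16710 tested genes in all. The remaining members, Trib3 and Chac1, are given by their values only. By role they comprise 9 chaperones of the HSP70 and HSP90 systems with their partners, 7 lectin chaperones and disulfide isomerases, 6 stress sensors and transcription factors, 6 genes of the ATF4 and CHOP arm, and 6 genes of ER-associated degradation (ERAD).

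The libraries came from fetal mouse intestine at stage E18.5, from cells sorted for green fluorescent protein driven by the Hopx promoter. Every library carries the strain label C57BL6/J / 129S4. There were 5 libraries labelled p57KO, lacking the cyclin-dependent kinase inhibitor p57Kip2, and 5 labelled p57WT. The sorted cells of all 10 libraries carry the Hopx reporter, and the sources used here do not say which part of the p57Kip2 gene the knockout allele lacks. The design text speaks of 5 intestines per genotype, but gives no animal identifiers, so each p-value measures the spread between these libraries. Sorting selects on the reporter and not on a lineage. In RNA from such a mixture, a larger share of secretory cells and more RNA per cell cannot be told apart.

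The unfolded protein response adjusts the folding capacity of the ER to its load. The sensors IRE1, PERK and ATF6 sit in the ER membrane: IRE1 splices the mRNA of the transcription factor XBP1, PERK phosphorylates the translation factor eIF2 alpha so that ATF4 is made, and ATF6 is cut in the Golgi to release a transcription factor. XBP1 and ATF6 act on genes of chaperones, disulfide isomerases and ERAD, whereas ATF4 acts on genes of amino acid supply and on Ddit3, which encodes CHOP. In the intestine this machinery is best known from goblet and Paneth cells, which fold large amounts of mucin and antimicrobial protein. The counts read RNA abundance, so neither Xbp1 splicing, ATF6 cleavage nor eIF2 alpha phosphorylation was measured.

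The promoters of these genes are shown first because ATF6 and XBP1 are known to act through short elements in them. The windows searched, from RefSeq on GRCm38.p6, ran from 250 bases before to 50 bases after the annotated start, and 29 of the 34 members had one among 32851 windows. The ER stress element, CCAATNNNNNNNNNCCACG on either strand, was found in 9 of these 29 members (31%) and in 39 of all windows (0.119%). The 9 were Hspa5, Hsp90b1, Dnajc3, Creld2, Calr, Canx, Pdia6, Syvn1 and Derl3, with 2 matches in Hsp90b1. Its second form, ATTGGNCCACG, was found in Herpud1 and Dnajb11, which is 6.9% of the members with a window against 0.0365% of all windows. The letters TGATGNAA of the amino acid response element were found in Asns, Herpud1, Trib3 and Chac1, 13.8% of members against 3.97% of all windows. The element TGACGTGG was in 0.676% of windows and in 0 members. All windows include those of the members, and the list names genes of a response known to act through such elements. The shares therefore describe the list and test nothing. A match of letters is a description of the window and not a binding site. The windows without an entry in the table, those of Hyou1, Manf, Ern2, Atf6 and Derl1, were not analysed here.

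The 250 bases before the start are printed below for 3 holders of the ER stress element, those with the smallest p in the comparison of genotypes, and for Sdf2l1 and Pdia4, the members with the largest increases. Capitals mark the fixed letters of the element, CCAAT and CCACG, or CGTGG and ATTGG where it lies on the opposite strand. Each sequence reads 5′ to 3′ in the direction of its gene and lies upstream of RefSeq's start. The 5′ end in the GENCODE M21 annotation differs from RefSeq's start for Hspa5, Pdia6 and Pdia4.
Hspa5, GRCm38 chr2:34771840-34772089, plus strand: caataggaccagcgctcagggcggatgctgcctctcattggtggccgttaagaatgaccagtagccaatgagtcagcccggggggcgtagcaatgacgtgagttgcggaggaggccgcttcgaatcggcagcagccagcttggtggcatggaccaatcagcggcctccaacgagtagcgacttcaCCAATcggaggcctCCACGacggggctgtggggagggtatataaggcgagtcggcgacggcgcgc
Pdia6, GRCm38 chr12:17266339-17266588, plus strand: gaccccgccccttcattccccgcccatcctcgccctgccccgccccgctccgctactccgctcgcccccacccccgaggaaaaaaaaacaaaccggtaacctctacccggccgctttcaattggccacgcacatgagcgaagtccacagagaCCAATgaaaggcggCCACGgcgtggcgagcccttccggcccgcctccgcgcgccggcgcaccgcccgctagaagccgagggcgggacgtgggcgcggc
Creld2, GRCm38 chr15:88819396-88819645, plus strand: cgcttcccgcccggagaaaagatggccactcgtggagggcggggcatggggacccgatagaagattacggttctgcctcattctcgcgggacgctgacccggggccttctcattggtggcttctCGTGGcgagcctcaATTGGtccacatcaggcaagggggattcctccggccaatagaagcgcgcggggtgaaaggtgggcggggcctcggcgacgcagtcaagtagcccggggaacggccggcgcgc
Sdf2l1, GRCm38 chr16:17132384-17132633, minus strand: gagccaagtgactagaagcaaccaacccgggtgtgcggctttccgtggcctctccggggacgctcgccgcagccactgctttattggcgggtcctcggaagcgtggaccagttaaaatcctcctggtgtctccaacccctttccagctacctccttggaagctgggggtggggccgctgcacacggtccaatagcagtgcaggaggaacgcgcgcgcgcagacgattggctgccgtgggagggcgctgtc
Pdia4, GRCm38 chr6:47813513-47813762, minus strand: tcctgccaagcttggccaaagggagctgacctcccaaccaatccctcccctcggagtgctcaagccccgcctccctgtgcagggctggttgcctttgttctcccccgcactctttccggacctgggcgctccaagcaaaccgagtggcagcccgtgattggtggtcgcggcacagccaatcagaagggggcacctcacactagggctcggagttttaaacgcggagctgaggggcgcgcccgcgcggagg
In Hspa5 the element lies at bases -65 to -47, counted from the start. In Pdia6 it lies at -98 to -80, and in Creld2 at -126 to -108 on the opposite strand. The windows of Sdf2l1 and Pdia4 hold none of the letters searched, which says nothing more than that these letters are not in these windows.

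Several facts of the libraries bear on the values below. Total counts ranged from 8037887 to 26809231, so that 3 counts, the floor used for an undetected gene, equal 0.105 to 0.392 CPM (library-size-scaled counts, with sizes adjusted by the trimmed mean of M values). Such limits cover counting error only. Cdkn1c, which encodes p57Kip2, lay between 0.153 and 2.06 CPM in p57KO and between 151 and 458 CPM in p57WT, as the labels have it. Hopx lay between 127 and 199 CPM in p57KO and between 60.4 and 78.1 CPM in p57WT. The labels also number the libraries, with no meaning stated: 607 for p57KO 1, p57KO 2 and p57WT 1, 608 for p57KO 3 to 5, and 740 for p57WT 2 to 5. Counts on ribosomal RNA repeats made up 0.0301% to 0.435% of 5 libraries (p57KO 1 to 4 and p57WT 2) and 9.47% to 17.0% of the other 5.

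The 2 genotypes also differed in their cell markers. The labels call the cells intestinal stem cells, yet RNA of all 10 smooth muscle markers was detected in every library. The summed level of 18 epithelial markers was 9589 to 19268 CPM in p57KO, against 3359 to 7967 CPM in p57WT, that of 12 goblet markers 4443 to 7577 against 1191 to 2320 CPM, and that of 6 Paneth markers 662 to 1602 against 140 to 545 CPM. The 12 enteroendocrine markers summed to 7796 to 19175 CPM in p57KO libraries and 200.2 to 1001 CPM in p57WT libraries, and all 12 were called higher. The 10 enterocyte markers summed to 3292 to 8712 and 497 to 1539 CPM, and 9 of them were called higher. Also called higher were 15 of 18 epithelial, 10 of 12 goblet and 5 of 6 Paneth markers, against 19.3% of all tested genes. The summed level of 10 smooth muscle markers was 4244 to 30278 CPM in p57KO, against 41351 to 90938 CPM in p57WT. All 10 were called lower, against 17.2% of all tested genes. For 8 myeloid markers the sums were 203 to 8300 against 19.4 to 142 CPM, with Ptprc, Itgam and Mpo at 0 in at least 1 library. The 7 tested myeloid markers were all called higher. Of the markers of plasma cells and of pancreatic acinar cells, both rich in ER, 2 each were analysed here. The plasma cell markers Mzb1 and Sdc1 summed to 73.7 to 92.0 CPM in p57KO, against 46.3 to 69.1 CPM in p57WT. Of these, Mzb1 was at or below 1.07 CPM in every library. The acinar markers Cela1 and Rbpjl summed to 11.7 to 33.8 CPM in p57KO, against 6.60 to 7.67 CPM in p57WT. Cela1, the higher of the acinar markers, was at or below 32.8 CPM. Every epithelial, goblet, enteroendocrine and enterocyte sum was higher in p57KO than in p57WT, the same direction as most members.

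In the fit with genotype as the only term, RNA of most members was higher in p57KO. Of the 32 tested members, 22 rose in p57KO and 1, Syvn1, fell, by edgeR's quasi-likelihood test, with p adjusted by Benjamini-Hochberg over 16710 genes and a threshold of 0.05. Among all tested genes 19.3% were called higher and 17.2% lower. The median log2 fold change of the members was 0.94, against 0.08 over all tested genes, and 28 of the 32 lay above 0. For 16 members every p57KO library lay above every p57WT library, which held for 11.5% of all tested genes. For 0 members did every p57KO library lie below, against 12.7% of all genes. In the authors' deposited table, made with another tool, 22 of the 34 members were called higher and 1 lower, and 23 of the 23 calls given here were made there with the same sign; that table called 20.5% of its genes higher and 17.0% lower.

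By role, most of the calls were among the folding enzymes. The chaperones had 8 of 9 members called higher, and the lectins and isomerases 7 of 7, with median log2 fold changes of 1.20 and 1.65. Of the sensors and factors 2 of 6 rose, of the tested genes of the ATF4 and CHOP arm 3 of 4, and of the ERAD genes 2 of 6 rose and 1 fell. Their medians were 0.37, 0.85 and 0.29. These counts describe the groups, and the difference between roles was not tested.

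**Figure D1:**
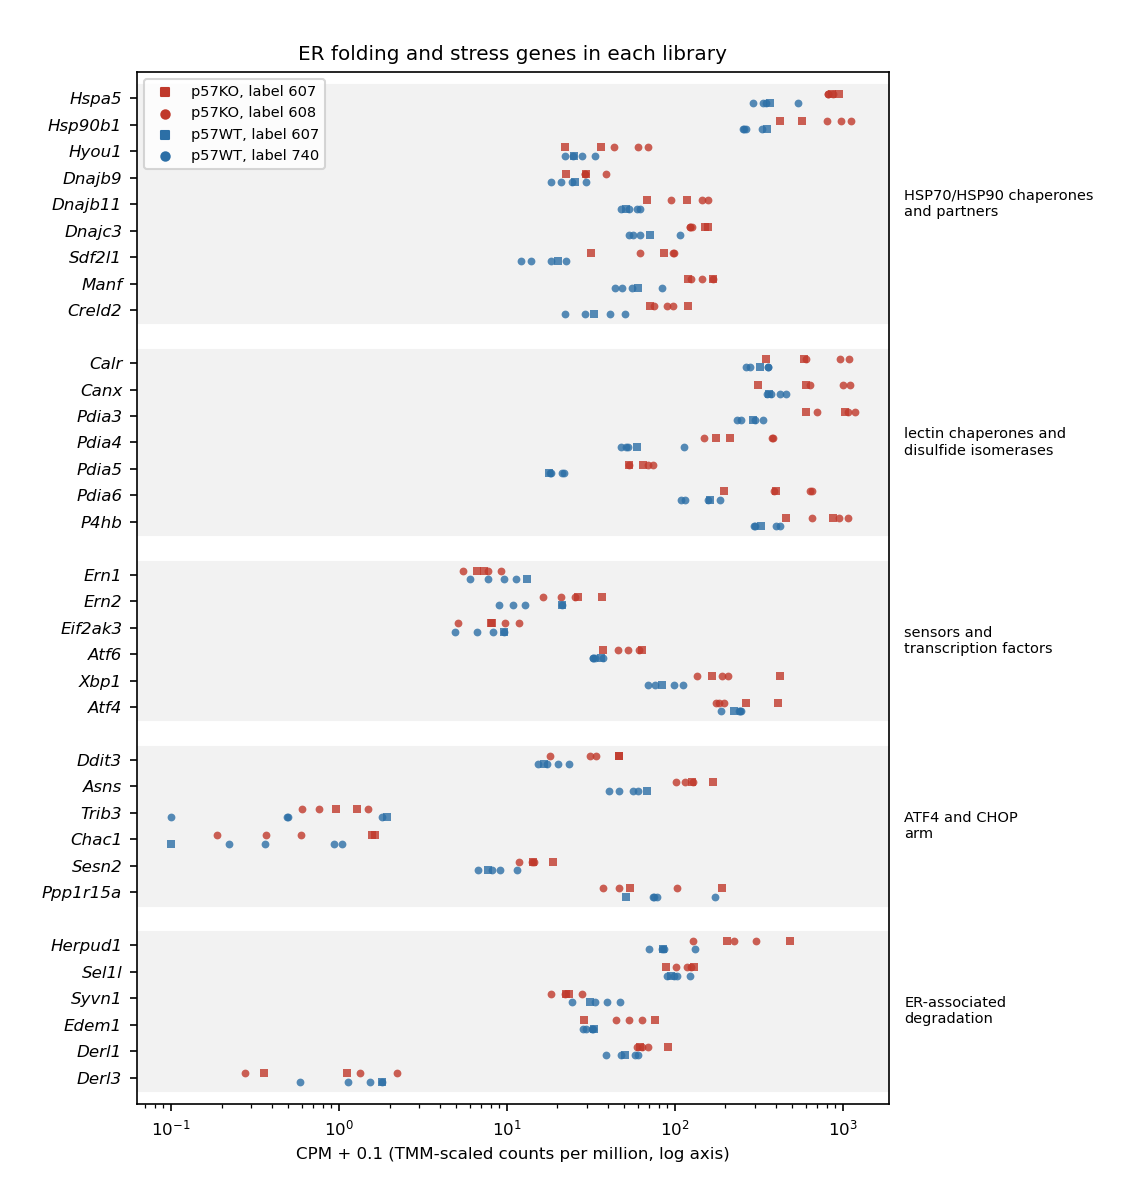
Level of each of the 34 members in each of the 10 libraries, as CPM plus 0.1 on a log axis, with p57KO in red and p57WT in blue and squares for the libraries of label number 607. The red points of Sdf2l1, Pdia3, Pdia4, Pdia5 and Hspa5 lie wholly to the right of the blue ones, whereas those of Atf4, Eif2ak3 and Sel1l overlap them.

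Among the chaperones, Hspa5 encodes BiP, the HSP70 chaperone of the ER that also holds the sensors inactive. From library 1 to 5, p57KO had 857, 945, 817, 811 and 878 CPM and p57WT had 370, 291, 349, 334 and 538 CPM; values are given in this order throughout. The p57KO libraries were close to each other and all above the p57WT libraries. The level was 2.29 times higher in p57KO (edgeR adjusted p = 0.00253, log2 fold change 1.20, SE 0.24).

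Hsp90b1, the HSP90 chaperone GRP94, was at 574, 420, 976, 1122 and 801 CPM in p57KO and at 353, 256, 265, 259 and 332 CPM in p57WT. The libraries of 608 were the high ones, and the genotypes did not overlap. The log2 fold change was 1.41 (SE 0.29, edgeR adjusted p = 0.00318). About 15.7% of its exonic length is shared with other annotated genes, and since the strand setting of the counting was not given, part of its reads could belong to those.

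Sdf2l1, a partner of the J-domain protein ERdj3, had the largest fold change of the members. The p57KO libraries 1 to 5 had 31.4, 85.8, 97.2, 98.9 and 61.5 CPM of it, the p57WT libraries 20.1, 18.3, 12.1, 13.7 and 22.5 CPM. The lowest p57KO library, p57KO 1, was still above all p57WT libraries. On average it was 75.0 ± 28.6 against 17.4 ± 4.36 CPM (SD, n = 5 each), a 4.32-fold difference with 95% limits of 2.67 and 6.97 (edgeR adjusted p = 0.000694, log2 fold change 2.11, SE 0.32). Dnajb11, which encodes ERdj3 itself, was at 68.5 to 157 CPM in p57KO, against 47.9 to 62.0 CPM in p57WT, a log2 fold change of 1.09 (edgeR adjusted p = 0.00464).

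Manf and Creld2 encode small ER proteins that are induced by stress and can be secreted. Manf was at 119, 168, 144, 170 and 125 CPM in p57KO, against 60.0, 44.0, 48.0, 55.5 and 84.1 CPM in p57WT, and Creld2 at 70.9 to 120 and 22 to 50.3 CPM. Neither overlapped between genotypes, and the log2 fold changes were 1.32 for Manf and 1.37 for Creld2 (edgeR adjusted p = 0.00130 and 0.00191). Of the exonic length of Manf, 9.25% is shared with other annotated genes. Dnajc3, the BiP co-chaperone p58IPK, rose by less, from 53.0 to 108 CPM in p57WT to 122 to 156 CPM in p57KO (log2 fold change 0.96, edgeR adjusted p = 0.00731).

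The weakest members of this group were Hyou1 and Dnajb9. Hyou1, a large HSP70-like exchange factor of BiP, was at 36.5, 22, 60.1, 69.5 and 43.3 CPM in p57KO, against 24.9, 27.7, 22, 33.5 and 24.7 CPM in p57WT. Its p57KO 2 library was as low as the lowest p57WT library, and the call (log2 fold change 0.80, edgeR adjusted p = 0.0461) held in 2 of the 10 fits that left out 1 library. Dnajb9, the J-domain co-chaperone ERdj4, was at 22.4 to 39.0 CPM in p57KO, against 18.3 to 29.5 CPM in p57WT and did not pass (log2 fold change 0.33, 95% limits -0.16 to 0.81).

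All 7 lectin chaperones and disulfide isomerases rose. Pdia4, the isomerase ERp72, stood at 212, 175, 386, 379 and 150 CPM in the p57KO libraries, against 59.6, 112, 47.9, 50.8 and 52.6 CPM in the p57WT libraries. The p57WT 2 library stood above the other p57WT libraries and below all p57KO libraries. Averages were 260 ± 114 against 64.7 ± 27.1 CPM (SD, n = 5 each), a 4.02-fold difference with 95% limits of 2.39 and 6.77 (edgeR adjusted p = 0.00130, log2 fold change 2.01, SE 0.35).

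Pdia5, another isomerase of the family, was at 53.2, 64.3, 69.0, 74.1 and 52.9 CPM in p57KO, against 17.8, 21.9, 18, 21.3 and 18.1 CPM in p57WT. Libraries of one genotype lay close together, and this member had the smallest p of all members. The difference was 3.23-fold (edgeR adjusted p = 0.000249, log2 fold change 1.69, SE 0.20).

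Pdia3 encodes ERp57, the isomerase that works with calnexin and calreticulin. It was at 606, 1037, 1075, 1182 and 698 CPM in p57KO, against 291, 334, 236, 246 and 302 CPM in p57WT, with no overlap. The log2 fold change was 1.71 (SE 0.26, edgeR adjusted p = 0.000711). Pdia6, the isomerase P5, was at 195 to 659 CPM against 109 to 185 CPM, and P4hb, the classical disulfide isomerase and a subunit of prolyl hydroxylase, at 457 to 1073 against 296 to 420 CPM. Both pairs of ranges were apart, with log2 fold changes of 1.65 and 1.20 (edgeR adjusted p = 0.00253 and 0.00524).

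The lectins themselves overlapped between genotypes. Calr, the soluble lectin calreticulin, was at 587, 351, 1083, 962 and 607 CPM in p57KO, against 323, 357, 281, 267 and 359 CPM in p57WT. Canx, the membrane lectin calnexin, was at 601, 314, 1003, 1106 and 634 CPM in p57KO, against 365, 459, 425, 373 and 355 CPM in p57WT. In both, p57KO 2 lay within or below the p57WT range, and p57KO 3 and 4 were the highest. The log2 fold changes were 1.18 for Calr (edgeR adjusted p = 0.00996) and 0.89 for Canx (edgeR adjusted p = 0.0427), and the call of Canx held in 3 of 10 fits without 1 library.

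Per length, folding enzymes were among the most abundant members. In RPKM, which is CPM divided by exonic length in kilobases, the highest mean levels in p57KO were those of Pdia3 at 293 ± 80.2, P4hb at 279 ± 85.4, Calr at 249 ± 104, Hspa5 at 204 ± 12.8 and Hsp90b1 at 193 ± 71 (SD, n = 5). In p57WT they were P4hb at 122 ± 20, Calr at 110 ± 14.8, Atf4 at 97.3 ± 10.5, Pdia3 at 89.7 ± 12.9 and Hspa5 at 89.0 ± 22.4 RPKM (SD, n = 5). Neighbours in either order differed by less than the SD of at least 1 of them. Taken over all 34 members, the p57KO libraries summed to 6079, 7179, 9170, 9089 and 6411 CPM, the p57WT libraries to 3380, 3649, 3055, 3068 and 3823 CPM, which was 0.604% to 0.977% of all counts in p57KO and 0.292% to 0.362% in p57WT.

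Of the 6 sensors and transcription factors, 2 (Atf6 and Xbp1) rose. Ern1 encodes IRE1 alpha, the form present in most tissues, and was at 5.41 to 9.14 CPM in p57KO, against 5.93 to 13.1 CPM in p57WT (log2 fold change -0.40, 95% limits -1.06 to 0.26, edgeR adjusted p = 0.319). Ern2 encodes IRE1 beta, the form of mucus-secreting epithelium. It was at 36.6, 26.3, 20.8, 16.2 and 25.2 CPM in p57KO, against 21.1, 12.7, 8.83, 10.7 and 21.2 CPM in p57WT. The p57KO 3 and p57KO 4 libraries lay within the p57WT range, and the difference did not pass (log2 fold change 0.75, 95% limits 0.07 to 1.42, edgeR adjusted p = 0.0773).

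Eif2ak3, which encodes PERK, was at 5.02 to 11.7 CPM in p57KO, against 4.82 to 9.56 CPM in p57WT (log2 fold change 0.14, 95% limits -0.56 to 0.84), and shares 8.05% of its exonic length with an antisense gene. Its product's best-known effector on the transcriptional side, Atf4, was at 409, 263, 195, 183 and 176 CPM in p57KO, against 225, 188, 248, 245 and 241 CPM in p57WT. The p57KO libraries of 607 were above every p57WT library and 2 of those of 608, p57KO 4 and 5, below every one, so that the log2 fold change was 0.10 (95% limits -0.47 to 0.66). Neither gene passed. These intervals do not show that the levels were alike, and ATF4 is known to be controlled mainly in translation, which was not measured.

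Atf6 and Xbp1 rose. Atf6 was at 64.0, 37.4, 61.5, 52.2 and 45.7 CPM in p57KO, against 36.1, 32.4, 33.2, 37.4 and 32.6 CPM in p57WT, with p57KO 2 just above the highest p57WT library (log2 fold change 0.60, edgeR adjusted p = 0.0354); the call held in 2 of 10 fits without 1 library. Xbp1, which encodes the factor activated by IRE1, was at 167, 424, 208, 192 and 134 CPM in p57KO, against 83.3, 111, 69.0, 75.6 and 99.2 CPM in p57WT. All p57KO libraries were above all p57WT libraries, with p57KO 2 far above the others. The log2 fold change was 1.36 (SE 0.31, edgeR adjusted p = 0.00510), and without p57KO 2 it was 1.03.

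**Figure D2:**
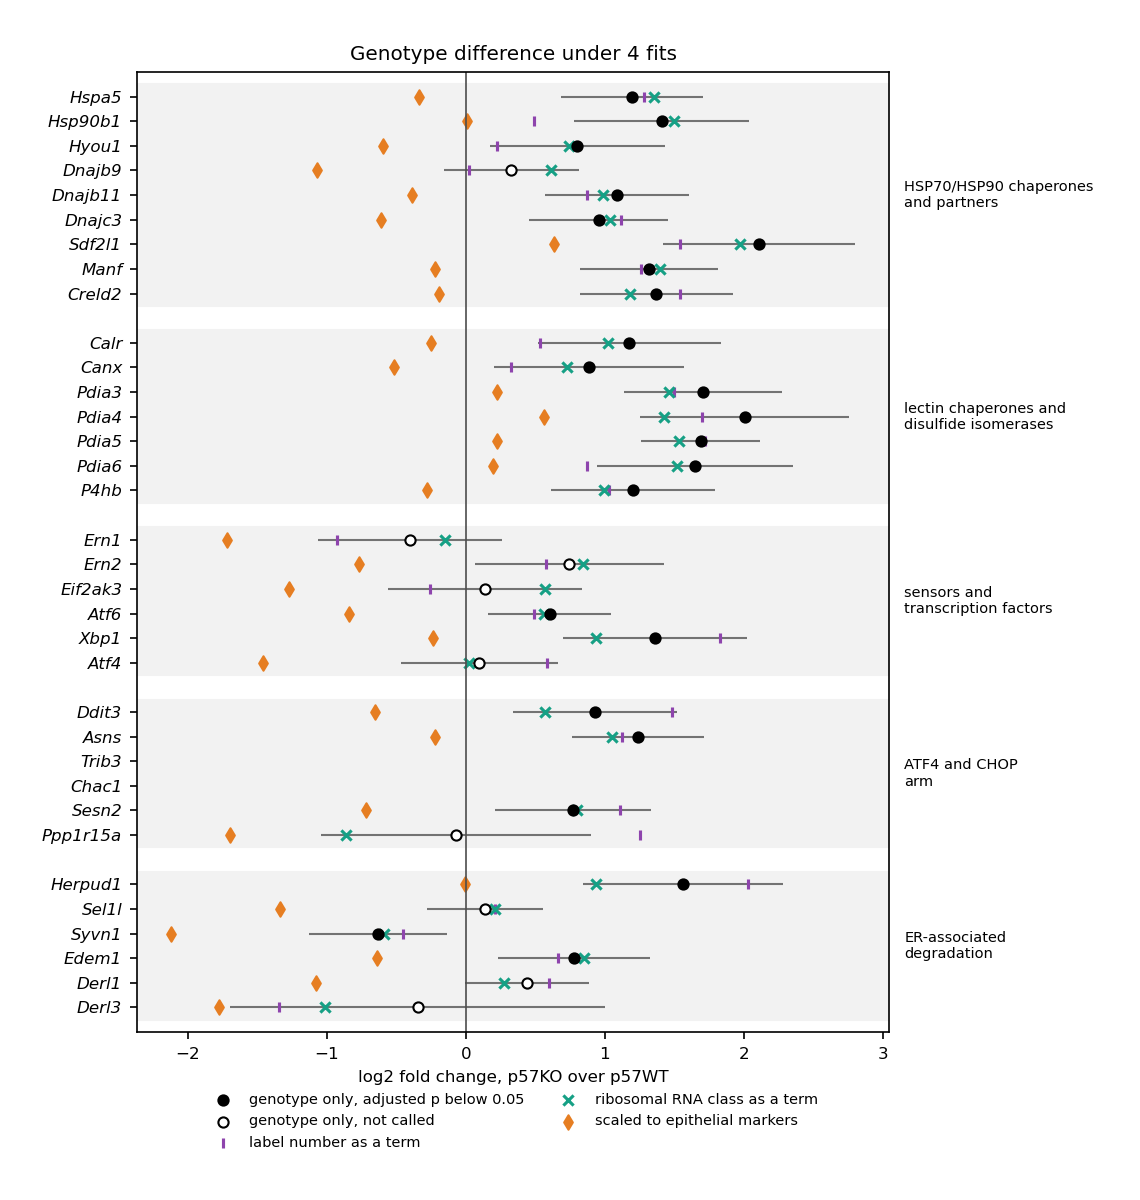
Log2 fold change of p57KO over p57WT for the 32 tested members, with bars for the 95% limits of the fit with genotype only, filled where the adjusted p is below 0.05. The other symbols give the same quantity with label number as a term, with ribosomal RNA class as a term and after scaling to epithelial markers. The first 2 of these lie mostly to the right of 0, and 22 members change sign under the epithelial scaling.

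Of the genes of the ATF4 and CHOP arm, 3 rose. Asns, asparagine synthetase, was at 170, 126, 116, 128 and 102 CPM in p57KO, against 67.7, 60.5, 40.4, 56.3 and 46.6 CPM in p57WT, with no overlap (edgeR adjusted p = 0.00144, log2 fold change 1.24, SE 0.22). Ddit3, which encodes CHOP, was at 46.4, 46.1, 34, 31.3 and 17.8 CPM in p57KO, against 16.5, 17.1, 15.2, 23.3 and 19.9 CPM in p57WT. Its p57KO 5 library lay within the p57WT range (log2 fold change 0.93, edgeR adjusted p = 0.0185), and 10.9% of its exonic length overlaps other annotated genes, Mars on the opposite strand among them. Sesn2, the stress protein sestrin 2, was at 11.7 to 18.8 CPM against 6.66 to 11.4 CPM (log2 fold change 0.77, edgeR adjusted p = 0.0335), and its call held in 4 of 10 fits without 1 library.

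Ppp1r15a encodes GADD34, the subunit that directs a phosphatase to eIF2 alpha and so ends the PERK signal. It was at 54.0, 191, 104, 46.6 and 37.2 CPM in p57KO, against 51.3, 174, 74.1, 75.1 and 78.6 CPM in p57WT. The high libraries were p57KO 2 and p57WT 2, 1 of each genotype, and the log2 fold change was -0.07 (95% limits -1.04 to 0.90). Trib3, a pseudokinase, was at 0.499 to 1.39 CPM in p57KO, against 0 to 1.82 CPM in p57WT. Chac1, a glutathione-degrading enzyme, was at 0.0870 to 1.55 CPM in p57KO, against 0 to 0.949 CPM in p57WT. Over the 5 libraries of each genotype Trib3 had 86 and 43 counts and Chac1 75 and 34, in p57KO and p57WT, so a difference of either was not tested at this depth.

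In ERAD, the pathway that returns misfolded proteins to the cytosol for destruction, members went in both directions. Herpud1, a membrane protein of the ERAD complex, was at 206, 483, 305, 224 and 128 CPM in p57KO, against 84.3, 132, 69.6, 83.6 and 85.6 CPM in p57WT. Only p57KO 5 fell within the p57WT range, below p57WT 2, and the log2 fold change was 1.56 (SE 0.33, edgeR adjusted p = 0.00369). Edem1, a lectin that selects trimmed glycoproteins, was at 28.6, 76.4, 52.9, 44.6 and 63.8 CPM in p57KO, against 28.2 to 33.1 CPM in p57WT, with p57KO 1 within the p57WT range (log2 fold change 0.78, edgeR adjusted p = 0.0288); its call held in 6 of 10 fits without 1 library.

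Syvn1, which encodes the ubiquitin ligase HRD1, was the member that fell. It was at 23.2, 22.4, 22, 18.1 and 27.8 CPM in p57KO, against 31.2, 39.5, 24.4, 33.2 and 47.2 CPM in p57WT. The highest p57KO library, p57KO 5, was above the lowest p57WT library, p57WT 3. The log2 fold change was -0.63 (SE 0.23, edgeR adjusted p = 0.0460), and the call held in 2 of 10 fits without 1 library, those without p57KO 5 and without p57WT 3. Sel1l, the adaptor that holds HRD1 in its complex, was at 89.0 to 131 CPM in p57KO, against 89.3 to 124 CPM in p57WT and did not pass (log2 fold change 0.14, 95% limits -0.28 to 0.56).

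The derlins, membrane proteins of the export channel, did not pass either. Derl1 was at 59.8 to 90.6 CPM in p57KO, against 38.7 to 59.9 CPM in p57WT (log2 fold change 0.44, 95% limits -0.01 to 0.88, edgeR adjusted p = 0.109). Derl3 was scarce, at 0.174 to 2.10 and 0.484 to 1.71 CPM, and its log2 fold change of -0.35 had 95% limits of -1.69 and 1.0. A difference in Derl3 within these limits was not detectable at this depth.

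The promoter letters can be set beside the changes. Of the 9 members with the ER stress element in the window, all tested, 7 rose, Syvn1 fell and Derl3 did not pass, with a median log2 fold change of 1.18. Of the 20 members whose window lacked it, 18 were tested, 12 rose and 6 did not pass, with a median of 1.0. The Sdf2l1 and Pdia4 windows, with the largest fold changes, were in the latter group. Among all tested genes 19.3% were called higher and 17.2% lower, with a median of 0.08. The difference between the groups with and without the element was not tested.

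The comparison was repeated within label numbers. Within 607, the only number with both genotypes, both p57KO libraries lay above the single p57WT library for 23 of the 32 tested members, against 38.3% of all tested genes. With label number as a term in the fit, which rests on these 3 libraries, 1 member, Pdia5, was called higher (log2 fold change 1.73, edgeR adjusted p = 0.0317), against 1.10% of all genes, and no member was called lower, against 4.94%. At an unadjusted p below 0.05, 12 members were higher, against 9.77% of all genes, and 0 lower, against 11.9%, in that edgeR fit. The members' median was 0.87 and the median of all genes 0.15. Hsp90b1, Hyou1, Calr, Canx and Pdia6 were at 0.49, 0.23, 0.54, 0.33 and 0.87 on the log2 scale. With genotype only they were at 1.41, 0.80, 1.18, 0.89 and 1.65. None of them was called with label number as a term. Sdf2l1 was then at 1.54, Pdia4 at 1.70, Hspa5 at 1.28, Xbp1 at 1.83 and Herpud1 at 2.03 on the log2 scale, with adjusted p between 0.0922 and 0.178.

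The share of ribosomal RNA was handled in the same way. In the 5 libraries with a low share, all 4 of p57KO lay above p57WT 2 for 22 of 32 members, against 27.7% of all tested genes. In the 5 with a high share, p57KO 5 lay above all 4 of p57WT for 26 of 32 members, against 32.9% of all tested genes. With this class as a term, 12 members were called higher by edgeR, against 7.22% of all genes, and 10.5% of all genes were called lower. The 12 were Hspa5, Hsp90b1, Dnajb11, Dnajc3, Sdf2l1, Manf, Creld2, Pdia3, Pdia4, Pdia5, Pdia6 and Asns. The members that no longer passed were Hyou1, Calr, Canx, P4hb, Atf6, Xbp1, Ddit3, Sesn2, Herpud1, Edem1 and Syvn1, the member that had fallen. Their adjusted p lay between 0.0501 and 0.302 in that edgeR fit.

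Libraries were also scaled to the summed counts of 18 epithelial markers. The median of all tested genes moved from 0.08 to -1.40 and the members' median from 0.94 to -0.56. The members' median lay 0.86 above that of all genes in the first scaling and 0.84 above it in the second. After the second scaling, 27 of 32 members lay above the median of all genes. A change of scaling moves all genes nearly alike, so both values were largely fixed in advance and test nothing about the markers. Under this scaling edgeR called 10 members lower, against 65.3% of all genes, and 0 members higher, against 2.18% of all genes, with 0 higher also at an unadjusted p below 0.05, against 2.51% of all genes. Sdf2l1, Pdia4, Pdia3, Pdia5, Pdia6 and Hsp90b1 kept a positive sign, and 22 members changed sign, which follows from the common shift that this scaling gives to every gene. The epithelial, goblet, enteroendocrine and enterocyte markers all moved with the members, and the part of any of them in the members' increase was not tested.

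**Figure D3:**
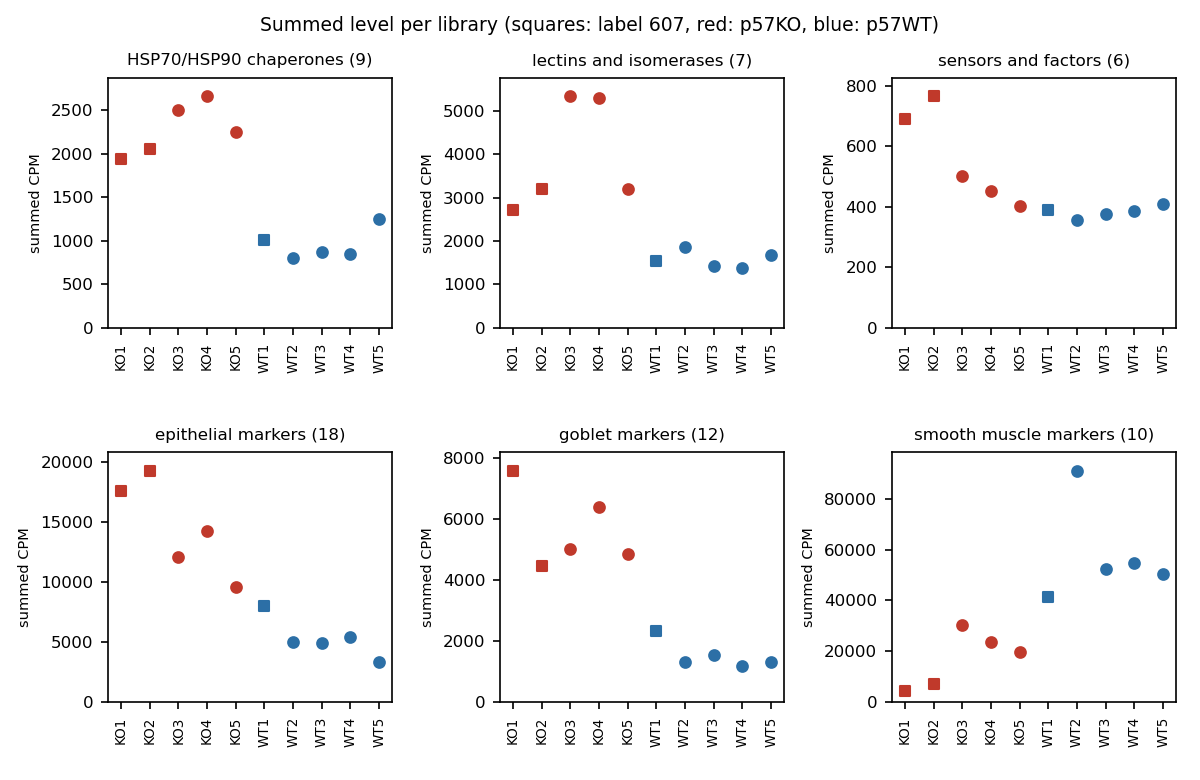
Summed CPM in each library of 3 groups of members (upper row) and of 3 lists of cell markers (lower row), each axis starting at 0. The chaperones and the lectins and isomerases are higher in every p57KO library, as are the epithelial and goblet markers, and the smooth muscle markers are lower. Within p57KO, lectins and isomerases and smooth muscle markers are highest in p57KO 3 and 4, and epithelial markers in p57KO 1 and 2.

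Within p57KO, the sums of members and of markers are set side by side for the 5 libraries, and their relation was not tested. The summed level of the 7 lectins and isomerases was 2712, 3208, 5330, 5307 and 3189 CPM in p57KO 1 to 5, and that of the 18 epithelial markers 17553, 19268, 12070, 14240 and 9589 CPM. The 10 smooth muscle markers, lower in p57KO than in p57WT, summed to 4244, 6955, 30278, 23723 and 19642 CPM. The libraries of 607 were thus the highest in epithelial markers, the lowest in smooth muscle markers and among the lowest in isomerases. The sum of the sensors and factors, most of it Atf4 and Xbp1, was 692, 765, 503, 454 and 403 CPM, highest in the libraries of 607. Ern1, Eif2ak3 and Atf6 averaged 6.87, 7.98 and 50.7 CPM in the p57KO libraries of 607, against 7.39, 8.77 and 53.1 CPM in 608. Ern2 averaged 31.4 CPM in 607 and 20.8 CPM in 608. Among the p57KO libraries, Atf4 was highest in p57KO 1 at 409 CPM and Xbp1 in p57KO 2 at 424 CPM. The numbers 608 and 607 were then compared within p57KO, in 3 against 2 libraries, after these values had been seen. By edgeR 0 members were called higher and 0 lower, against 3.67% and 3.01% of all tested genes. At an unadjusted p below 0.05, 5 members were higher in 608, against 11.8% of all tested genes, and 1 was lower, against 12.7%. They were Hsp90b1, Hyou1, Calr, Canx and Pdia6, with log2 fold changes of 0.92 to 1.0, and Atf4 (-0.86), and none of them passed the adjustment.

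The wider machinery of the ER was read from 6 further lists with no gene of the 34. Of 141 genes listed, 136 were tested, 48 were higher and 12 lower, with a median log2 fold change of 0.46 against 0.08 over all genes. This is 35.3% higher and 8.82% lower, against 19.3% and 17.2% of all tested genes. The counts by list follow.

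The genes that bring proteins into the ER and cut their signal peptides had 11 of 18 members called higher. Examples were Sec61b, a subunit of the translocation channel, at 220 ± 31.7 CPM in p57KO, against 93.1 ± 20.1 CPM in p57WT (SD, n = 5 each; log2 fold change 1.24, edgeR adjusted p = 0.00136), and the signal peptidase subunits Spcs2 and Sec11c, with log2 fold changes of 1.29 and 1.09. Glycosylation genes had 8 of 15 called higher and 1 lower. Rpn1 and Stt3a, subunits of the enzyme that attaches glycans, and Mcfd2, a cargo receptor partner, had log2 fold changes of 1.40, 1.75 and 1.49. Uggt2, a homologue of the enzyme that returns misfolded glycoproteins to calnexin, fell by 1.43 on the log2 scale.

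Other folding enzymes had 9 of 27 called higher and 4 lower. Agr2, an isomerase of mucin folding in goblet cells, had the smallest p of this list, at 1604, 1788, 1203, 1661 and 1228 CPM in p57KO, against 380, 154, 315, 220 and 184 CPM in p57WT (edgeR adjusted p = 0.000260, log2 fold change 2.58, SE 0.31). Erp44, a thioredoxin-like retention factor, and Fkbp2, a prolyl isomerase, followed with 1.29 and 1.19. The genes with the smallest p in the other direction were P3h1, Fkbp10 and Fkbp7, with log2 fold changes of -2.91, -2.48 and -1.20. P3h1 and Fkbp10 are known for the modification and folding of collagen, and the summed level of 6 fibroblast markers was 128 to 1212 CPM in p57KO, against 2413 to 8383 CPM in p57WT. The part of that difference in these decreases was not tested.

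Other ERAD genes were near the background of all genes, with 4 of 23 (17.4%) called higher and 2 (8.7%) lower. Selenos and Os9, of the HRD1 complex, and the mannosidase-like Edem2 had log2 fold changes of 1.40, 1.13 and 1.55, and Bag6 and Fam8a1 of -1.08 and -1.06. Other regulators were also near that background, with 4 of 19 (21.1%) higher and 2 (10.5%) lower. Creb3l3, a membrane-bound factor of liver and intestine, was at 177 ± 70.8 CPM in p57KO, against 46.3 ± 13.2 CPM in p57WT (SD, n = 5 each; log2 fold change 1.93, edgeR adjusted p = 0.000788). Its relative Creb3l2 went the other way, at 30.2 ± 13.2 and 136 ± 32.4 CPM (SD, n = 5 each; log2 fold change -2.17, edgeR adjusted p = 0.000605). Eif2s1, which encodes eIF2 alpha itself, averaged 199 CPM in p57KO, against 85.4 CPM in p57WT (edgeR adjusted p = 0.00812). The antioxidant factor Nfe2l2 had a log2 fold change of 1.24, and Wfs1, an ER membrane protein, of -1.02.

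Further targets of ATF4 and CHOP had 12 of 34 called higher and 3 lower. Cth, the enzyme that makes cysteine from cystathionine, was at 27.3, 55.3, 102, 110 and 81.4 CPM in p57KO, against 13.4, 12, 11.7, 12.3 and 7.94 CPM in p57WT. Every p57KO library was above every p57WT library (edgeR adjusted p = 0.000343, log2 fold change 2.71, SE 0.35). The stress cytokine Gdf15 and the factor Cebpg had log2 fold changes of 2.13 and 0.73. The amino acid transporters Slc7a5 and Slc7a1, also targets of ATF4, fell by 0.98 and 0.91 on the log2 scale, and the death receptor Tnfrsf10b by 1.45.

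**Figure D4:**
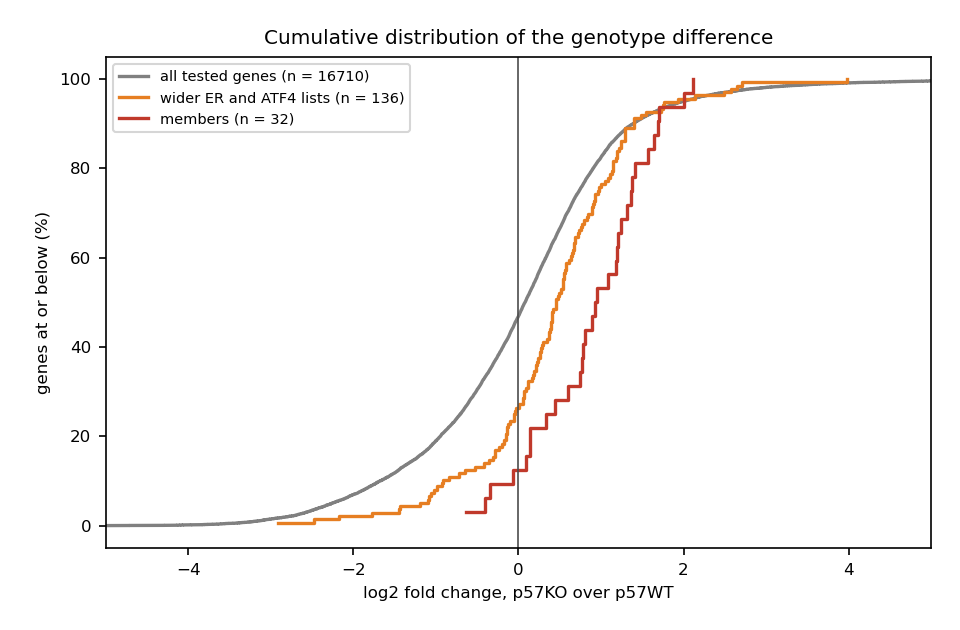
Cumulative share of genes (%) at or below each log2 fold change of p57KO over p57WT, for all 16710 tested genes, the 136 tested genes of the wider lists and the 32 tested members. The curve of the members lies to the right of the other curves over most of its range, with medians of 0.94, 0.46 and 0.08 from members to all genes, and it ends at 2.11 where all genes reach further.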

How the data were processed

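RNA was sequenced from 10 libraries of sorted cells, 5 per genotype. The authors deposited 1 table with integer read counts per gene and library, per the file headers, which were used as they are. Their own test of genotype stands beside them as a log2 fold change and p-value, deposited by the authors, per the file headers. Per the submitters' processing notes, DESeq2 1.22.2, HTSeq 1.0, Cufflinks 2.2.1, STAR 2.6.1d, Trim Galore and FastQC were used with mm10 (GRCm38). Which tool did which step, whether counting was stranded and which annotation it used are not given in the sources used here.

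Counts were tested with edgeR 4.0.16 (limma 3.58.1, R 4.3.3), using the quasi-likelihood test, TMM scaling, the tool's expression filter (3869 of 20579 genes removed) and genotype as the only term, with Benjamini-Hochberg adjustment over 16710 genes at a threshold of 0.05. DESeq2 1.42.0, RLE scaling, scaling to epithelial markers, no filter, the replicate block, label number and ribosomal RNA class (above or below 5% of counts) as terms, and leaving out libraries were alternatives; the counts within label number and within class, the contrast of 608 over 607 and the unadjusted counts, with their share of all genes, were added after seeing the data. The script was tested on simulated data. RPKM used exon lengths of GENCODE M21, which 20558 identifiers matched. The members, lists and the rule for named genes (all members, then in each wider list up to 3 called genes per direction with the smallest p) were chosen with earlier results of these data known.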

Additional observations from a re-analysis of the deposited data

Results flagged for a closer look

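Of 64 groups of 5 libraries, 2 for each of the 32 tested members, 1 had a library far from the others. In Pdia4, the p57WT 2 library was the highest p57WT library at 112 CPM, against 47.9 to 59.6 CPM in the other 4. On the log2 scale with an offset of 0.5 CPM its gap to the nearest library was 0.7441 of the range of the group, above Dixon's 95% critical value of 0.71. Chance alone sets off this mark in about 1 of 20 groups. The p57WT 2 library is the only p57WT library with a low share of ribosomal RNA repeats (0.0301%) and has the highest summed smooth muscle markers (90938 CPM), and the part of either in its Pdia4 level was not tested. Without p57WT 2 the log2 fold change of Pdia4 was 2.31, against 2.01 with it, and it was called in all 10 edgeR fits that left out 1 library.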

How the results depend on the processing

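With DESeq2 and with RLE scaling, 22 members were called higher and 1 lower, as in the edgeR fit reported. Of all genes, DESeq2 called 3816 higher and 3373 lower, and RLE scaling 3312 and 2927. Without the expression filter 21 members were higher and 0 lower, against 3546 and 2943 of all genes. Scaling to epithelial markers called 11277 genes in place of 6107, with 2.18% of all tested genes higher and 65.3% lower. It gave 0 members higher and 10 lower, and 2 of the 136 tested genes of the wider lists higher and 77 lower. It turned the medians to -0.5575 for members and -1.3960 for all genes. Under it the log2 fold changes of Hspa5, Hyou1, Dnajb9, Dnajb11 and Dnajc3 were -0.3360, -0.5959, -1.0745, -0.3888 and -0.6104. Those of Manf, Creld2, Calr, Canx and P4hb were -0.2217, -0.1905, -0.2524, -0.5192 and -0.2801, and those of Ern2, Eif2ak3, Atf6, Xbp1 and Atf4 -0.7663, -1.2711, -0.8424, -0.2383 and -1.4635. Ddit3, Asns, Sesn2, Herpud1, Sel1l, Edem1 and Derl1 were at -0.6533, -0.2229, -0.7184, -0.0094, -1.3347, -0.6403 and -1.0812. This scaling sets the epithelial markers equal between genotypes by construction.

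With label number as a term 1009 genes passed, with 1.10% of all tested genes higher and 4.94% lower. Of the members 1 was higher and 0 lower, and of the wider lists 4 genes were higher and 3 lower. Eif2ak3 and Ppp1r15a changed sign to -0.2604 and 1.2552. With ribosomal RNA class as a term 2959 genes passed, with 7.22% of all tested genes higher and 10.5% lower. Of the members 12 were higher and 0 lower (1 lower at an unadjusted p below 0.05, against 17.8% of all genes). Of the wider lists 18 genes were higher and 6 lower. Without both p57KO libraries of 607, 20 members were higher and 0 lower, against 3571 and 3299 of all genes. The members' median was then 1.0886 and that of all genes -0.0203, and Atf4 and Derl3 changed sign to -0.2566 and 0.0011. For the last 2 of these settings and for label number the cause of the change was not tested.

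The replicate block left 18 members higher and 0 lower by edgeR, against 2861 and 2943 of all genes. At an unadjusted p below 0.05 it left 23 and 1, against 23.4% of all genes in each direction. The p57KO 1 and p57WT 1 libraries also share label 607, and the other same-numbered libraries share only their number. Their deviations from the group means correlated at r = 0.204, 0.0504, -0.134, -0.115 and 0.147, so the numbers were not taken to pair them. Leaving out 1 library at a time gave 4763 to 7141 genes, of which 2405 to 3653 were higher and 2246 to 3542 lower. Of the members 17 to 21 were higher and 0 to 1 lower, with a median of 0.8729 to 1.0210. Of the members, Atf4 (-0.1582 to 0.2082) and Ppp1r15a (-0.5516 to 0.3151) changed sign in these fits, and neither was called in any of them. The calls of Hyou1, Canx, Atf6, Sesn2, Syvn1 and Edem1 were lost in at least 4 of the 10 fits, and the calls of 17 members were kept in all 10. Depth limits what can be said of Trib3, Chac1 and Derl3.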
